A study of Mus musculus with 12 samples.

Results

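The probe sets named for 3 antibody heavy chain classes and for the J chain were followed over 12 mouse gene arrays of bone marrow plasma cells. Members were all probe sets whose only gene symbol in the array annotation is Ighm, Igha, Ighg3 or Jchain. There were 7 of them among 35556 probe sets: 3 for Ighm, 2 for Igha, 1 for Ighg3 and 1 for Jchain. The labels give 6 samples of genotype Zbtb32 +/+ (wild type) and 6 of Zbtb32 -/-, 1 array each. In both groups CD45.2 splenocytes of donors immune to NP-CGG, a hapten on a carrier protein, had been moved into CD45.1 recipients, which were then challenged with the same antigen. Plasma cells of donor origin that bound NP were sorted from the marrow 7 days later by gating on CD138+ NP+ cells that carried CD45.2 and lacked CD45.1, B220, Ly6g and CD11b. The series text calls the samples biological replicates. The number of mice behind each sample, their age and the deleted part of Zbtb32 were not found in the labels. Memory B cells are named in the title of the series, plasma cells in the labels. P-values measure the spread between these samples. Zbtb32 encodes a BTB zinc finger transcription factor, and the comparison asks how its loss alters the transcripts of plasma cells made in a recall response.

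An antibody heavy chain transcript joins a rearranged variable segment to the exons of a constant region, and the constant region sets the class: Ighm gives IgM, Ighg3 gives IgG3 and Igha gives IgA. Class switching replaces the constant region and keeps the variable segment. Plasma cells secrete IgM and IgA as polymers that the J chain, a small protein encoded outside the heavy chain locus, holds together and makes fit for transport by the polymeric immunoglobulin receptor. RefSeq (GRCm38.p6) lists Ighm, Igha and Ighg3 as constant regions on chromosome 12 and Jchain as a protein-coding gene on chromosome 5. The annotation does not say which part of a heavy chain transcript a probe set covers. A probe set named for a class through records of whole transcripts may therefore read a variable segment.

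The probe sets of one gene are told apart here by letters. Ighm A is probe set 10402864, Ighm B is 10402991 and Ighm C is 10403069. Igha A is 10403034 and Igha B is 10403063, while Ighg3 is 10403046 and Jchain is 10531126. Igha A and Igha B rest on the same 7 sequence records in the annotation. Ighm A lists 12 records and Ighm C lists 6, of which they share 1, and the 8 records of Ighm B are shared with neither.

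The arrays carried the plasma cell profile together with transcripts of other marrow cells. All 10 plasma cell markers were measured, led by Xbp1 and Mzb1 at means of 13.02 and 12.76 (log2 RMA value, the authors' normalized expression value, over 12 arrays). The mean of that list ran from 10.47 to 11.32 on wild-type and from 10.58 to 11.34 on Zbtb32-/- arrays. Neutrophil markers (12 of 12 measured, led by S100a9 at 12.55 and Ngp at 12.25) had list means of 7.86 to 11.14 and 9.12 to 12.33, although the sort left out cells with Ly6g and CD11b. B cell markers (11 of 12 measured, led by Fcrla at 10.35 and Cd79b at 10.12) had list means of 7.62 to 8.63 and 7.94 to 8.32. Monocyte markers (9 of 10, led by Cybb at 10.16 and Lyz2 at 9.93) had list means of 6.80 to 8.52 and 6.94 to 8.23. Erythroid markers (8 of 11, led by Car1 at 9.18 and Ermap at 7.66) gave 6.09 to 7.95 and 6.90 to 7.55. T and NK markers (10 of 12, led by Cd28 at 8.39 and Nkg7 at 7.25) gave 5.94 to 6.89 and 5.90 to 6.21. The T and NK markers below Nkg7 had means of 6.68 down to 4.47, and whether such cells were present was not tested. Basophil and mast cell markers (7 of 7, led by Gata2 at 6.35 and Prss34 at 6.06) gave 4.76 to 5.97 and 4.70 to 4.91. RMA values have no zero. Across probe sets, pairs of arrays correlated at 0.914 to 0.984, and the arrays least like the rest were wild-type replicates 2 and 6, with mean correlations of 0.933 and 0.938.

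No member differed between the genotypes after adjustment. With limma over all 35556 probe sets, 0 of the 7 members passed an adjusted p of 0.05 (member adjusted p from 0.945 to 0.987). In this main fit 0 of them had an unadjusted p under 0.05. Of all probe sets tested, 7 passed, 0.0197% of them; all 7 were lower in Zbtb32-/- arrays, 0 of them has a gene symbol in the annotation used, and 4 of them hold identical values. At an unadjusted p under 0.05 there were 1346 probe sets, or 3.79%. The values of the genotypes overlapped for all 7 members, where 0.169% of all probe sets did not overlap. Levels are described below for each class. In sorted bulk samples, fewer cells of a class and less RNA per cell cannot be told apart.

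**Figure D1:**
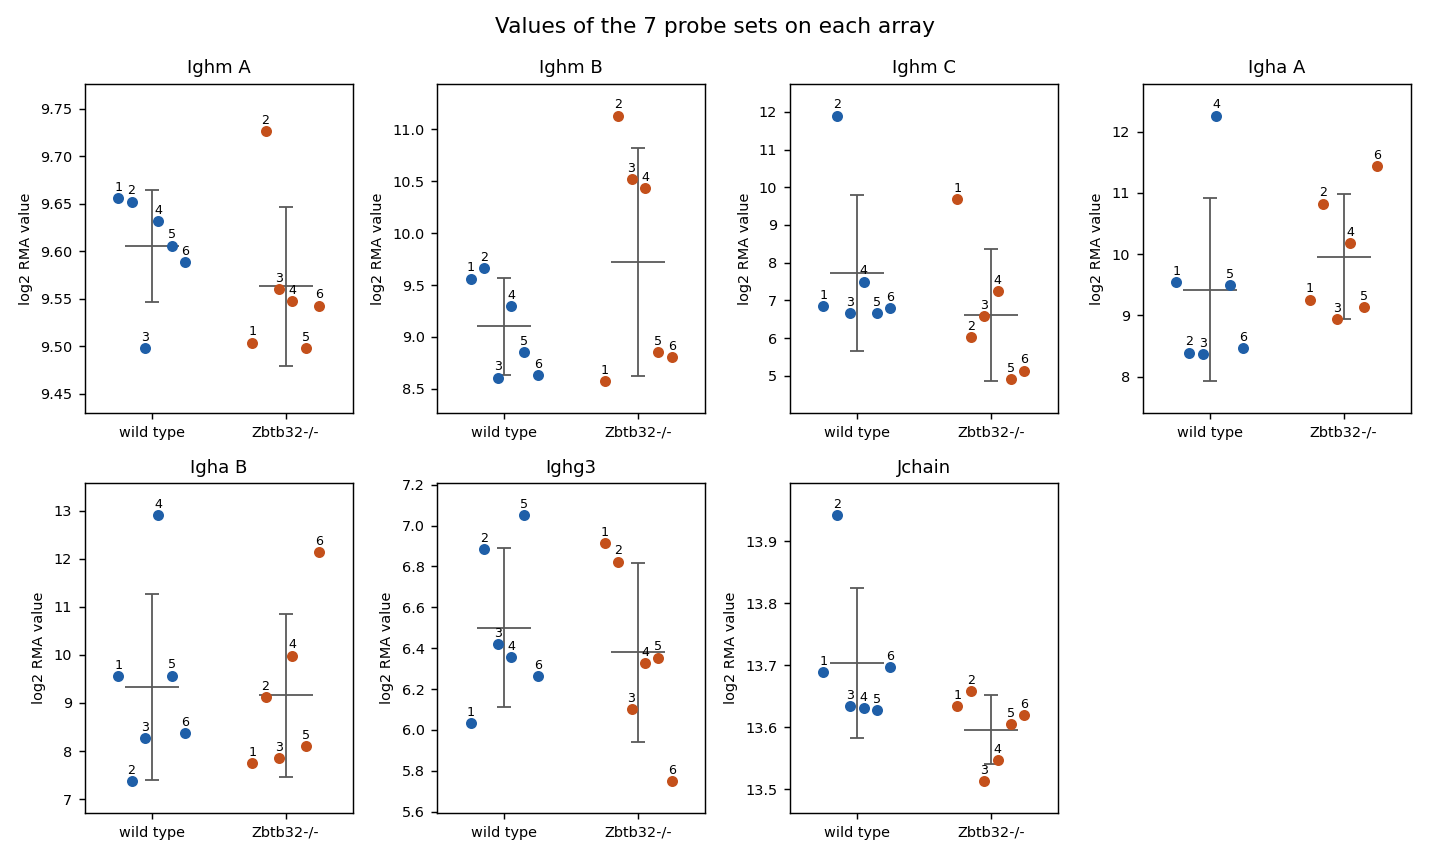
Values of the 7 probe sets on each array (y axis: log2 RMA value, with its own range in each panel; x axis: genotype). Points are arrays with their replicate numbers, and grey bars are the mean and SD of 6 arrays. Ighm A spans 0.23 log2 units in all, whereas Ighm C spans 6.98 with wild-type replicate 2 at 11.90.

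Ighm A was nearly the same on every array. Ighm encodes the heavy chain of IgM, the class made before switching. In wild-type arrays Ighm A had a lowest, median and highest log2 value of 9.50, 9.62 and 9.66, and in Zbtb32-/- arrays of 9.50, 9.55 and 9.73. The ranges overlapped, with Zbtb32-/- replicate 2 highest and wild-type replicate 3 lowest of all. The means were 9.61 ± 0.06 and 9.56 ± 0.08 (SD, n = 6 each), which differed by -0.04 (Zbtb32-/- minus wild type, as for all differences here; 95% interval -0.19 to 0.11, limma adjusted p = 0.956, two-sided exact permutation p = 0.336). The wild-type mean was exceeded by 1 of 6 Zbtb32-/- arrays.

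Ighm B divided the Zbtb32-/- arrays. Its lowest, median and highest values were 8.61, 9.07 and 9.66 in wild-type and 8.57, 9.65 and 11.13 in Zbtb32-/- arrays. Zbtb32-/- replicates 2, 3 and 4 stood at 11.13, 10.52 and 10.43, above every wild-type array. Replicates 1, 5 and 6 of the same genotype stood at 8.57, 8.86 and 8.81, inside or below the wild-type range. The means were 9.10 ± 0.47 and 9.72 ± 1.10 (SD, n = 6 each), a difference of 0.62 (95% interval -0.35 to 1.59, limma adjusted p = 0.945, exact permutation p = 0.210). It was 0.34 without Zbtb32-/- replicate 2 and 0.85 without Zbtb32-/- replicate 1.

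Ighm C was set apart by a pair of arrays, 1 of each genotype. Wild-type arrays had a lowest, median and highest value of 6.66, 6.82 and 11.90, and Zbtb32-/- arrays of 4.92, 6.31 and 9.69. Wild-type replicate 2 held the 11.90 and Zbtb32-/- replicate 1 the 9.69, while the other 10 arrays lay between 4.92 and 7.50. The means were 7.73 ± 2.07 and 6.61 ± 1.75 (SD, n = 6 each), a difference of -1.12 (95% interval -3.31 to 1.07, limma adjusted p = 0.945, exact permutation p = 0.379). Without wild-type replicate 2 the difference was -0.29, and without Zbtb32-/- replicate 1 it was -1.74. Wild-type replicate 2 also had the lowest neutrophil list mean (7.86) and the lowest B cell list mean (7.62) of all arrays.

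The 3 Ighm probe sets thus gave differences of -0.04, 0.62 and -1.12, which disagree in sign. Their mean per array differed by -0.18 (limma adjusted p = 0.967 over 19938 genes). Zbtb32-/- replicate 2 was highest in Ighm A and Ighm B and stood at 6.03 in Ighm C, and Zbtb32-/- replicate 1 was lowest in Ighm B and next to highest in Ighm C. Wild-type replicate 2 was highest in Ighm C and the highest of its genotype in Ighm B.

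Igha, the heavy chain of the IgA of mucosal surfaces, varied over a wide range with both of its probe sets. Igha A had a lowest, median and highest value of 8.37, 8.98 and 12.26 in wild-type arrays and of 8.94, 9.72 and 11.44 in Zbtb32-/- arrays. Wild-type replicate 4 and Zbtb32-/- replicate 6 were the highest arrays, and Zbtb32-/- replicates 2 and 4 followed at 10.83 and 10.18. The means were 9.42 ± 1.49 and 9.96 ± 1.02 (SD, n = 6 each), a difference of 0.54 (95% interval -0.92 to 2.00, limma adjusted p = 0.946, exact permutation p = 0.476). Without wild-type replicate 4 it was 1.11 (limma adjusted p = 0.9995), and without Zbtb32-/- replicate 6 it was 0.24.

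Igha B placed the same 2 arrays on top. Its lowest, median and highest values were 7.38, 8.96 and 12.90 in wild-type and 7.75, 8.62 and 12.13 in Zbtb32-/- arrays. Wild-type replicate 4 was at 12.90, Zbtb32-/- replicate 6 at 12.13, and the next array, Zbtb32-/- replicate 4, at 9.98. The means were 9.34 ± 1.93 and 9.16 ± 1.69 (SD, n = 6 each), a difference of -0.18 (95% interval -2.26 to 1.89, limma adjusted p = 0.987, exact permutation p = 0.833). Leaving out wild-type replicate 4 turned it to 0.53, and leaving out Zbtb32-/- replicate 6 gave -0.78. It was also positive, at 0.10, 0.08 and 0.03, without Zbtb32-/- replicate 1, 3 or 5.

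The 2 arrays with the most Igha signal also stood apart in the marker lists. Wild-type replicate 4 had the highest neutrophil list mean of its genotype (11.14) and the lowest plasma cell list mean (10.47). Zbtb32-/- replicate 6 had the highest neutrophil list mean of all arrays (12.33) and the lowest plasma cell list mean of its genotype (10.58). Basophil and mast cell markers were highest in wild-type replicate 4, at 5.97, and stood at 4.89 in Zbtb32-/- replicate 6. Wild-type replicate 5, with a neutrophil mean of 10.85, had Igha A at 9.49. With a covariate that averages 4 marker lists (T and NK, erythroid, monocyte, neutrophil), the differences of Igha A and Igha B were 0.39 and -0.43 (limma adjusted p = 0.909 and 0.923). The part of other cells in the Igha values was not tested further.

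Ighg3, the heavy chain of a switched IgG class, lay in the middle of the array's scale. Its lowest, median and highest values were 6.03, 6.39 and 7.05 in wild-type and 5.75, 6.34 and 6.91 in Zbtb32-/- arrays. Wild-type replicate 5 was highest and Zbtb32-/- replicate 6 lowest, with the groups overlapping over most of the range. The means were 6.50 ± 0.39 and 6.38 ± 0.44 (SD, n = 6 each), a difference of -0.12 (95% interval -0.61 to 0.37, limma adjusted p = 0.956, exact permutation p = 0.610), and 0.0037 without Zbtb32-/- replicate 6. Its mean over 12 arrays, 6.44, was at percentile 47.8 of probe sets that name 1 gene. The probe set rests on 1 sequence record.

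Jchain read near the top of the scale on every array. In wild-type arrays its lowest, median and highest values were 13.63, 13.66 and 13.94, and in Zbtb32-/- arrays 13.51, 13.61 and 13.66. All 6 Zbtb32-/- arrays lay below the wild-type mean, and replicates 1 and 2 of them lay within the wild-type range while the other 4 lay below its lowest value, so the groups overlapped. The means were 13.70 ± 0.12 and 13.60 ± 0.06 (SD, n = 6 each). The difference was -0.11 (95% interval -0.22 to 0.0065), a 0.928-fold level. Its exact permutation p was 0.0368 before any adjustment, and limma gave p = 0.0625 and adjusted p = 0.945 over the table. Without wild-type replicate 2, the highest array, the difference was -0.06. The table's highest value is 14.33.

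**Figure D2:**
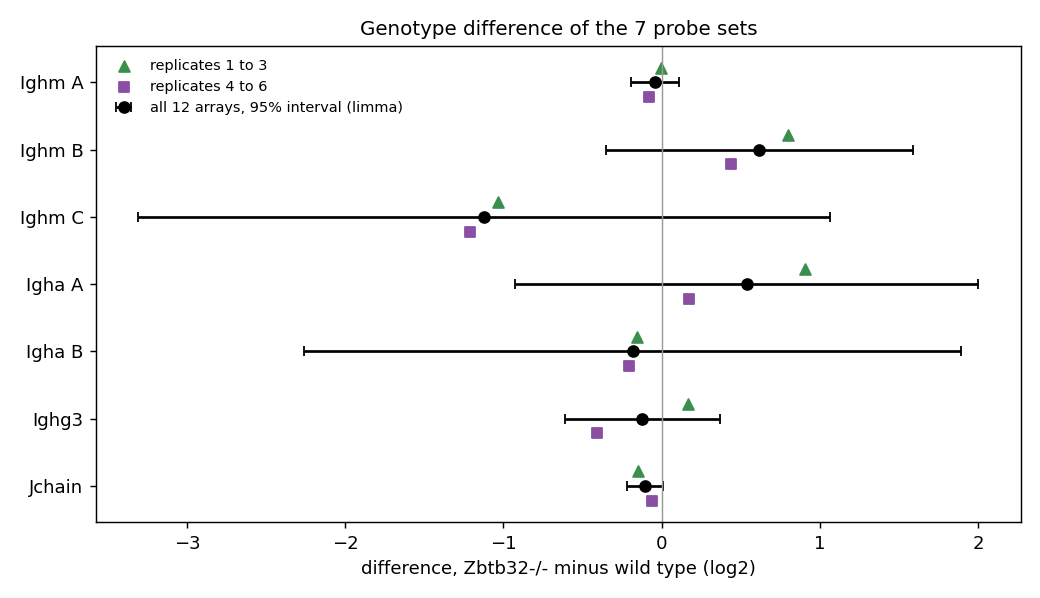
Genotype difference of the 7 probe sets (x axis: Zbtb32-/- minus wild type, log2). Black points and bars are the estimates of the main limma fit over 12 arrays with 95% intervals, all of which include 0. Triangles and squares are the differences within replicates 1 to 3 and 4 to 6.

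The precision differed greatly between the members. For Ighm A, Ighg3 and Jchain a 2-fold difference of the array value, up or down, lay outside the 95% interval. Jchain lies near the top of the scale and Ighg3 was not checked against background. Ighm A had the smallest spread among probe sets of like level, and whether it follows its transcript was not tested. These intervals are therefore not bounds on the transcripts. For Ighm B, Ighm C, Igha A and Igha B the intervals were wider. Ighm C could lie anywhere from 0.101-fold to 2.09-fold of the wild-type level, and Igha A from 0.527-fold to 4.01-fold. A 2-fold difference lay inside the interval of each of these 4 probe sets.

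The spread between arrays set Ighm A apart from the other heavy chain probe sets. Over 12 arrays the SD of Ighm A was 0.0725, and 0 of the 1216 probe sets naming 1 gene with a mean within 0.5 of its own had a smaller one; their median SD was 0.289. Ighm B, with an SD of 0.868, was at percentile 98.3 of 1378 probe sets of like level. Ighm C (SD 1.92), Igha A (1.25) and Igha B (1.74) were at percentiles 99.95, 99.4 and 99.9 of theirs. Ighg3 (SD 0.40) was at percentile 85.0 and Jchain (SD 0.105) at percentile 80.0 of 45. The largest spreads were thus in probe sets of Ighm and Igha, and another probe set of Ighm had the smallest of the 7.

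**Figure D3:**
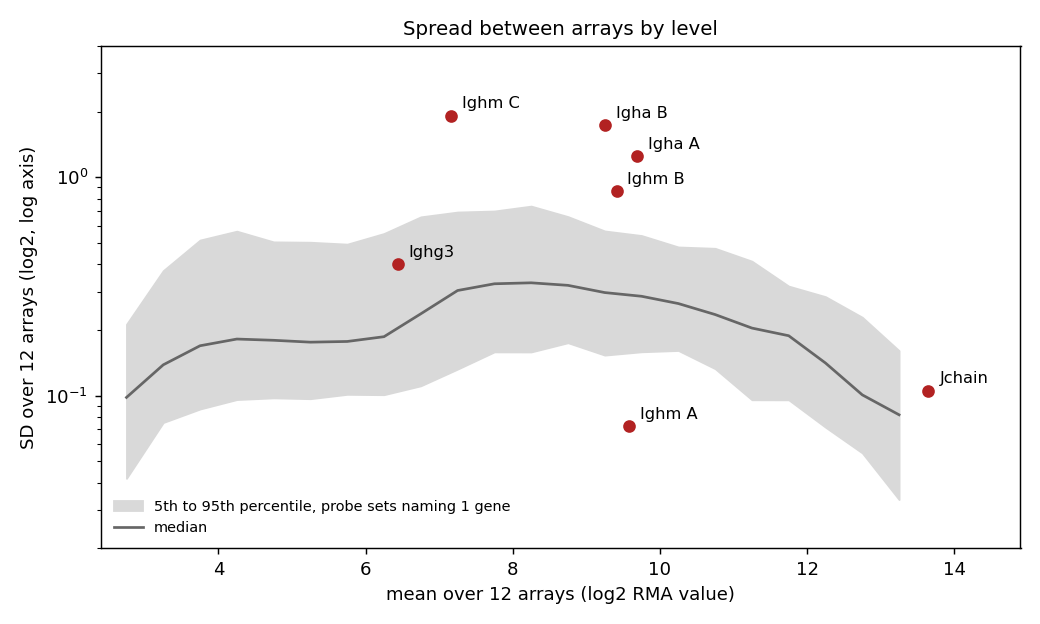
Spread between arrays by level: the SD over 12 arrays (y axis, log2 units on a log axis) against the mean over 12 arrays (x axis, log2 RMA value). The grey band holds the 5th to 95th percentile of probe sets naming 1 gene in bins of 0.5, the line is their median, and red points are the 7 members; Ighm A lies below the band, and Ighm B, Ighm C, Igha A and Igha B lie above it.

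The 2 probe sets of Igha followed each other over the arrays, and those of Ighm did so less clearly. The 4 pairs of probe sets of one gene were compared over 12 arrays, with permutation p-values adjusted over the 4. Igha A and Igha B correlated at r = 0.907 (p = 0.00019, adjusted p = 0.00076) and rho = 0.797 (p = 0.00298, adjusted p = 0.0119), and all 12 arrays lay on the same side of the median in both. The same correlation was 0.984 within wild-type and 0.897 within Zbtb32-/- arrays. Within replicates 1 to 3 it was 0.676 (exact p = 0.133) and within replicates 4 to 6 it was 0.977 (exact p = 0.00278). Without wild-type replicate 4 and Zbtb32-/- replicate 6, the 2 arrays farthest from the median of Igha A, r was 0.688 over 10 arrays (permutation p = 0.0264, adjusted p = 0.106), so the call rests on those arrays. Igha A minus Igha B ran from -0.70 to 1.70 over the arrays, with wild-type replicate 4 and Zbtb32-/- replicate 6 among those where Igha B was higher.

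Ighm A and Ighm B correlated at r = 0.576 (p = 0.0517, adjusted p = 0.103) and rho = 0.615 (p = 0.0372, adjusted p = 0.0745). Within wild-type arrays r was 0.842 and within Zbtb32-/- arrays 0.783 (exact p = 0.0139 and 0.00972, adjusted p = 0.0278 for each). It was 0.758 in replicates 1 to 3 and -0.06 in replicates 4 to 6, and 0.276 without the 2 arrays farthest from the median of Ighm A, so the relation did not hold throughout. Ighm C correlated with Ighm A at r = 0.177 (p = 0.586, adjusted p = 0.781, rho = 0.263 with p = 0.405). With Ighm B it gave r = -0.0037 (p = 0.992, adjusted p = 0.992, rho = -0.07 with p = 0.822). Without the 2 arrays farthest from the median of Ighm A, the r of Ighm C with Ighm A was 0.466. Without the 2 arrays farthest from the median of Ighm B, the r of Ighm C with Ighm B was 0.267. The arrays farthest out in Ighm C itself were not left out by that rule. Within replicates 1 to 3 the r with Ighm A and with Ighm B was -0.07 and -0.37, and within replicates 4 to 6 0.778 and 0.508.

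**Figure D4:**
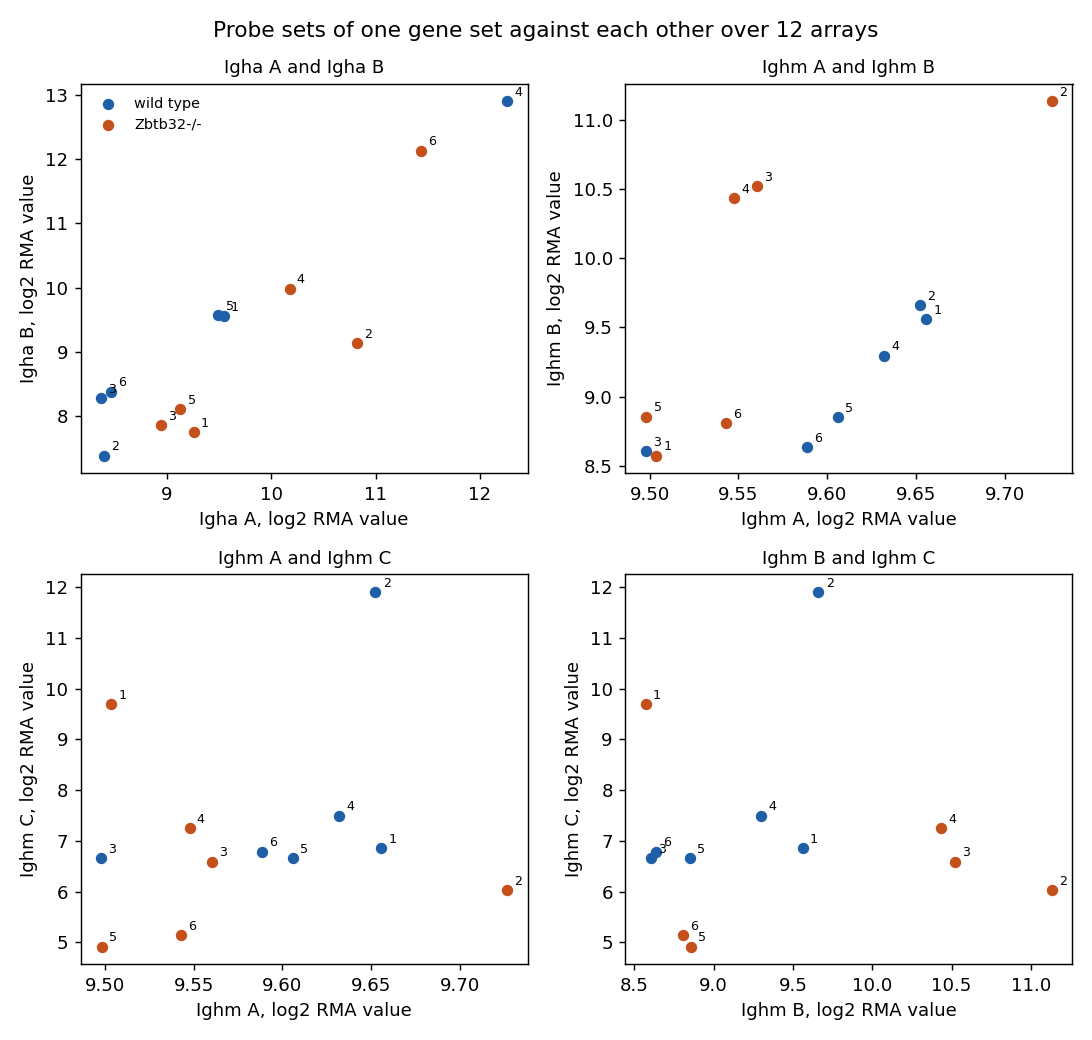
Probe sets of one gene set against each other (both axes: log2 RMA value; points are arrays with replicate numbers, coloured by genotype). Igha A and Igha B rise together with wild-type replicate 4 and Zbtb32-/- replicate 6 at the top right. In the Ighm A and Ighm B panel Zbtb32-/- replicates 2, 3 and 4 lie above every wild-type array in Ighm B. Wild-type replicate 2 and Zbtb32-/- replicate 1 stand apart in Ighm C.

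No correlation between probe sets of different genes passed. Of the 17 pairs that cross genes, 0 passed an adjusted p of 0.05 over 17 (smallest adjusted p = 0.609, permutation test over 12 arrays), with r from -0.41 to 0.697. The highest was that of Jchain with Ighm C (p = 0.0383 before adjustment, rho = 0.476), a pair in which wild-type replicate 2 was the highest array in both. Jchain correlated with Ighm A at r = 0.445 (p = 0.140, adjusted p = 0.624) and with Igha A and Igha B at -0.29 and -0.27 (p = 0.354 and 0.367). These are the heavy chains that J chain joins into polymers.

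Replicates 1 to 3 and 4 to 6, a split by label number chosen with earlier results of these arrays known and not called a batch in the labels, were set side by side. Igha A averaged 9.22 ± 0.91 in replicates 1 to 3 and 10.16 ± 1.44 in replicates 4 to 6, and Igha B averaged 8.32 ± 0.85 and 10.18 ± 1.96 (SD, n = 6 each, both genotypes together). Wild-type replicate 4 and Zbtb32-/- replicate 6, the highest arrays, both lie in replicates 4 to 6. Without both of them the set difference of Igha A was 0.10 in place of 0.94, and that of Igha B was 0.69 in place of 1.86. Ighm C went the other way, from 7.96 ± 2.33 to 6.38 ± 1.09. Ighm A, Jchain and Ighg3 moved by -0.03, -0.06 and -0.18. These set differences are descriptions with no test.

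The genotype difference itself did not pass a test of change between the 2 sets for any member (limma interaction, 0 of 7 passing, smallest adjusted p = 1.00, against 0% of all 35556 probe sets). At an unadjusted p under 0.05 the interaction picked 0 of 7 members and 3.97% of all probe sets. Ighm B differed by 0.80 in replicates 1 to 3 and by 0.44 in replicates 4 to 6, Ighm C by -1.03 and -1.21, and Jchain by -0.15 and -0.06. Igha A gave 0.91 and 0.17 and Igha B -0.16 and -0.21. Ighg3 gave 0.17 and -0.41, which differ in sign, and Ighm A gave -0.0050 and -0.08.

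Other antibody classes and light chains could not be set beside the members. Of 11 listed constant regions (Ighd, Ighg1, Ighg2a, Ighg2b, Ighg2c, Ighe, Igkc and 4 lambda genes), 0 had a probe set naming that gene alone, so the IgG1 class and the light chains were not analysed here. The shares of the classes in these cells can therefore not be given. Levels of different probe sets are on scales of their own, and no class is ranked above another.

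Genes that act with the antibody chains were read from 5 lists, with 66 probe sets in all, of which 0 passed limma's adjusted p of 0.05 in either direction. The list for antibody folding, IgM polymer assembly and the secretory switch had 19 of 20 probe sets (18 genes) with a positive difference and a median of 0.13, beside 44.2% positive and a median of -0.02 over the table. Among probe sets naming 1 gene above the 50th percentile of level, 64.5% were positive, with a median of 0.06. Both Dnajc3 probe sets of the list hold the same values. Cstf2, a cleavage factor tied to the secreted form of heavy chain transcripts, averaged 8.17 ± 0.15 in wild-type and 8.49 ± 0.28 in Zbtb32-/- arrays (SD, n = 6 each), a difference of 0.32 (SE 0.14). Ero1a, an oxidase that drives disulfide formation, differed by 0.48 (SE 0.20), by 0.04 in replicates 1 to 3 and 0.91 in replicates 4 to 6. Mzb1, which helps IgM assemble, differed by 0.14 (SE 0.13). Erp44, which holds back unfinished IgM polymers, differed by 0.16 (SE 0.18). Each had limma adjusted p = 0.945. In replicates 1 to 3 and in 4 to 6 Cstf2 differed by 0.18 and 0.46, Mzb1 by 0.09 and 0.18, and Erp44 by -0.02 and 0.34. More of the list's probe sets were negative than positive in replicates 1 to 3, so the shared positive sign did not hold there. After a further quantile normalization 16 of 20 were positive, with a median of 0.07. The lowest plasma cell list means were 10.47, 10.76 and 10.78 (replicates 4, 5 and 6, wild type) and 10.58 (replicate 6, Zbtb32-/-), and their part in these differences was not tested. Mzb1 and Ell2 are on both the folding list and the plasma cell list.

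In the class switch list 10 of 17 probe sets were positive, with a median of 0.03. Runx3, a factor of the IgA switch, differed by 0.23 (SE 0.10) and Lig4, the ligase of end joining, by -0.34 (SE 0.15), both with limma adjusted p = 0.945. Of 13 transcription factors of immunoglobulin and J chain genes, 8 were positive, with a median of 0.07. Bach2, which holds back the plasma cell fate, differed by -0.70 (SE 0.29), by -0.38 in replicates 1 to 3 and -1.02 in replicates 4 to 6. Ets1 differed by -0.27 (SE 0.14), by -0.06 in replicates 1 to 3 and -0.49 in replicates 4 to 6. Pax5, which represses Jchain in B cells, differed by -0.60 (SE 0.47), by -0.10 in replicates 1 to 3 and -1.10 in replicates 4 to 6. Pou2af1, the coactivator of octamer-bound immunoglobulin promoters, differed by 0.20 (SE 0.11). These 4 genes had limma adjusted p = 0.945. The 3 highest B cell list means, 8.42, 8.56 and 8.63, came from replicates 4, 5 and 6 of the wild type. Pax5 is itself on that marker list, and the part of these arrays was not tested.

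Among receptors and carriers of antibody classes, 5 of 12 were positive, with a median of -0.02 that turned to 0.02 after a further quantile normalization and to 0.0077 with median centring. Fcamr, a receptor for IgA and IgM, differed by -0.17 (SE 0.08) at a low level, and Fcgr2b, the inhibitory IgG receptor, by 0.21 (SE 0.14). Pigr, the receptor that carries polymers held by J chain, differed by -0.0071 (SE 0.10). For the 4 homing receptors known on IgA plasma cells, 3 were positive and the median was 0.16, with Itga4 at 0.18 (SE 0.14) and Ccr10 at 0.27 (SE 0.27). Limma adjusted p was 0.945 or above for each of these genes.

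The genes whose values over the 12 arrays were most like each member are given as a description. They were ranked by Pearson's r over the 12 arrays against about 16340 probe sets that name 1 gene above the 25th percentile of level. Nearest to Ighm A were Smim38 (r = 0.871), Cd79a (0.829), Set (0.808), Dstyk (0.797) and 1700102P08Rik (0.796). Cd79a encodes the signalling partner of membrane IgM. Nearest to Ighm B were Clcn7 (0.834), Cluh (0.816), Foxa2 (0.780), Gm5129 (0.780) and Rtraf (0.777).

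Ighm C was closest to Nfatc4 (0.971), Sh3gl3 (0.940), Sox6os (0.901), Tspan15 (0.898) and Kiss1 (0.889). Igha A was closest to Iqgap2 (0.927), Nhsl2 (0.895), Tbc1d2 (0.879), Cnksr1 (0.877) and Rhou (0.876), and Igha B to Rhou (0.921), Adgrg3 (0.889), Adgrg1 (0.887), Tsc22d1 (0.880) and Gmip (0.872). Rhou was thus among the nearest of both Igha probe sets. Ighg3 was closest to Trp53i13 (0.873), Dnajc8 (0.852), 1700001L19Rik (0.839), Hmcn1 (0.828) and Rps12 (0.827). Jchain was closest to E2f5 (0.926), Gm13262 (0.915), Ttll11 (0.914), Tacc2 (0.906) and Hecw2 (0.902). The means of these genes over the arrays were 5.56 to 6.27, against 13.65 for Jchain. Wild-type replicate 2 was the highest array in both Jchain and Ighm C, and its part in their ranks was not tested. The ranks were not repeated without single arrays.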

How the data were processed

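The deposited table gives 1 log2 value for each probe set and array, and the submitters' processing notes name RMA and Affymetrix Expression Console; versions, genome build and whether all arrays were normalized together are not given in the sources used here. Per the labels, RNA was amplified with the WT Pico kit. Of 35556 probe sets, 21789 name 1 gene, 1621 name several and 12146 are unnamed here. Coordinates are not printed because the table names no build, and probe sequences were not used here. The members and lists were chosen with earlier results of these data known.

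All probe sets were fitted with limma 3.58.1 in R 4.3.3 (lmFit, eBayes with a trend, genotype as the only term), with Benjamini-Hochberg adjustment over the table at 0.05. Exact permutations used all 924 assignments of arrays to genotypes, and correlations over 10 or 12 arrays used 100000 permutations. All permutation tests are two-sided. Intervals are 95%. The number of arrays limits the precision. On simulated data, 25.4%, 74.6% and 93.9% of probe sets changed by 0.5, 1 and 2 log2 units were recovered among 35556. The 200 changed probe sets were drawn at random, and 5 unchanged ones were called. The rates therefore do not describe probe sets as variable as Ighm B, Ighm C, Igha A and Igha B. Named were all members, the 2 genes of each list with the smallest p, the 2 highest markers and the 5 most alike genes; Mzb1, Erp44, Pax5, Pou2af1, Pigr and Rhou were singled out after their values were seen. Alternatives were other normalizations, filters, variance settings, array weights, blocks, marker covariates and leaving out arrays. Tables were joined with pandas 2.3.3 in Python 3.11.15, and plots were made in matplotlib 3.10.9.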

Additional observations from a re-analysis of the deposited data

Results flagged for a closer look

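In 4 of the 14 sets of 6 arrays (7 probe sets in 2 genotypes) the highest array lay past Dixon's 95% limit. That limit is on its distance from the nearest neighbour, relative to the range of the group. The lowest array passed it in none of the 14. Counting a highest or a lowest array, chance alone would mark about 5% of such groups. Counted in the same way, 8.5% of the 71112 groups of all probe sets were marked. The 4 are not independent: wild-type replicate 2 is the array in both Ighm C and Jchain. Ighm A was highest in Zbtb32-/- replicate 2, at 9.73. Ighm C was highest in wild-type replicate 2, at 11.90, and Jchain was highest in the same array, at 13.94. Igha A was highest in wild-type replicate 4, at 12.26. The part of these arrays in the genotype differences is given by the values without each of them, and what set them apart was not tested.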

How the results depend on the processing

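No member passed under any alternative run. The sign of the genotype difference held for Ighm A, Ighm C, Igha A and Jchain throughout. It turned for Ighm B when probe sets of a gene were averaged (-0.18). For Igha B it turned in the same way (0.18) and with the B cell marker covariate (0.14). For Ighg3 it turned with array weights (0.0638) and within replicates 1 to 3 (0.17). On leaving out single arrays Igha B ran from -0.78 to 0.53 (positive in 4 of 12 cases) and Ighg3 from -0.23 to 0.0037 (positive without Zbtb32-/- replicate 6). The change of the genotype difference between the replicate sets ran over a wide range on leaving out single arrays: from -1.11 to 0.17 for Ighm B, -1.90 to 0.95 for Ighm C, -1.54 to 0.36 for Igha A, -1.08 to 1.26 for Igha B and -0.0023 to 0.15 for Jchain. The causes were not tested.

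The whole-table count of 7 became 0 with probe sets naming 1 gene above the 25th or the 50th percentile and with probe sets of a gene averaged, where unnamed probe sets are left out. It was also 0 within replicates 1 to 3, within replicates 4 to 6 and with the replicate number as a block. Same-numbered arrays deviated together at r from 0.10 to 0.415, with 5 of 6 pairs over 0.1. Arrays with different numbers were not compared in this way, so whether the numbers mark pairs cannot be told. The main fit left the number out. Under the replicate block the smallest limma adjusted p in the table was 0.0900 and that of Jchain was 0.781.

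The Ighm A and Ighm B correlation passed within wild-type arrays (0.842), within Zbtb32-/- arrays (0.783), with genotype means removed (0.779) and with median centring (0.739), and was -0.057 in replicates 4 to 6. That of Igha A and Igha B no longer passed in replicates 1 to 3 (0.676) or without the 2 arrays farthest from the median, wild-type replicate 4 and Zbtb32-/- replicate 6 (0.688). Replicate sets and left-out pairs of arrays were added for correlations after seeing the data. Ighm A and Ighm C turned sign within Zbtb32-/- arrays (-0.20) and replicates 1 to 3 (-0.0735). Ighm B and Ighm C turned sign within wild-type arrays (0.647), with genotype means removed (0.124) and in replicates 4 to 6 (0.508). They also did so without the 2 arrays farthest from the median of Ighm B (0.267).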

Other observations

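Another 4 probe sets name Igha or Ighg3 together with variable segments and so are no members. Probe set 10403015, named for Ighg3, Igha and variable segments, lay between 11.94 and 13.14 on all 12 arrays, and its genotype means were 12.71 (wild type) and 12.75 (Zbtb32-/-). Probe set 10403018, with the same names, lay between 11.67 and 12.89, with means of 12.38 and 12.39. On wild-type replicate 4 and Zbtb32-/- replicate 6, where both Igha probe sets were highest, 10403015 stood at 12.58 and 12.85. Probe set 10403021, named for Igha and a variable segment, was highest in Zbtb32-/- replicate 1, at 11.24, and averaged 9.56 and 10.11. Probe set 10403009, named for Igha and another variable segment, was at 10.51 in wild-type replicate 1 and between 4.92 and 8.27 on the other 11 arrays. Each of these probe sets had a different highest array.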
